A study of Mus musculus with 8 samples.

Results

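The genes described here encode the adult and fetal isoforms of the cardiac sarcomere and their regulatory chains, namely Myh6, Myh7, Myh7b, Acta1, Actc1, Tnni1, Tnni3, Myl2 and Myl3. They were chosen by gene name and make up 9 of the 33249 genes, with 51 listed transcripts. Poly(A) RNA of mouse myocardium was sequenced in 8 libraries, 2 in each of 4 groups, to ask how deletion of Piezo1, a mechanosensitive cation channel, alters the heart after myocardial infarction (MI). All mice carried Piezo1 alleles flanked by loxP sites (Piezo1fl/fl). In Piezo1Cko mice a tamoxifen-inducible Cre recombinase was driven by the Myh6 promoter, the promoter of one of the 9 genes, so that the deletion is aimed at cardiomyocytes only. Littermates without the Myh6-Cre transgene were the controls, and the labels call their genotype WT. Tamoxifen was given at 4 weeks of age to delete Piezo1, and the sources used here do not say whether the controls received it. Surgery was done at 8 weeks of age. The groups were fl/fl-Sham and CKO-Sham, operated without ligation, and fl/fl-MI and CKO-MI, sampled on day 42 after the left anterior descending artery had been tied off for good. Libraries are named by the label of their group and a number. The labels do not say whether the libraries of a group came from separate animals, so every p-value measures the spread between these libraries, which may be technical.

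The sarcomere is built of thick filaments of myosin and thin filaments of actin, and several of its proteins exist as isoforms encoded by separate genes. The adult mouse ventricle uses the fast α-myosin heavy chain Myh6, cardiac actin Actc1 and cardiac troponin I Tnni3. The fetal ventricle uses more of the slow β-myosin heavy chain Myh7, skeletal actin Acta1 and slow skeletal troponin I Tnni1, and a return of Myh7 and Acta1 is widely used as a sign of hypertrophy and failure in rodent hearts.

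The deposited counts summed to between 73821747 and 88117573 per library, and of the counts from 1 to 40 between 30.9% and 33.2% were multiples of 4, against 25% if spread evenly, so a read pair appears to give up to about 4 counts. Genes of the mitochondrial genome held 43.1% to 46.4% of all counts after sham surgery, against 19.9% to 24.2% after MI. A value relative to the library total, such as FPKM (counts per kilobase of transcript, relative to the library total), is therefore moved upward in the MI libraries for most other genes. For this reason differences between groups were tested on counts with TMM scaling, which sets the bulk of genes equal, and are given as log2 fold changes, while FPKM is used for levels between genes and for ratios within a library, which do not depend on the scaling. The targeted gene Piezo1 was at 71.9 and 81.6 TMM-scaled CPM (counts brought to a common library size) in fl/fl-Sham, 76.3 and 87.9 in CKO-Sham, 53.3 and 64.5 in fl/fl-MI, and 56.0 and 64.3 in CKO-MI. It was not lower in the libraries labelled CKO, with a log2 difference of 0.10 (SE 0.16, edgeR adjusted p = 0.99973) between the sham groups and 0.03 (SE 0.16, adjusted p = 0.972) between the MI groups, so the labels of genotype were not checked by this gene. Cells other than cardiomyocytes also express Piezo1, and counts over the whole gene do not single out the deleted exons. The library fl/fl-MI 2 stood apart from its group. Its atrial regulatory light chain Myl7 was at 2129 FPKM against 4.83 to 28.6 in the other libraries, its atrial light chain Myl4 at 658 FPKM against 1.87 to 8.10, and the atrial growth factor Bmp10 at 927 FPKM against 2.32 to 3.22. The defining ventricular genes Myl2 and Myl3 were present in every library, but in fl/fl-MI 2 Myl2 made up 17.3% of the summed FPKM of Myl2 and Myl7 against 98.1% to 99.7% elsewhere. The share of atrial and ventricular tissue in each library was not tested, and the tests of the 9 genes and of the gene lists are given with and without it.

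Myh6 (ENSMUSG00000040752) and Myh7 (ENSMUSG00000053093) lie side by side on the minus strand of chromosome 14, with 4042 bases between them (Myh6 from 54941921 to 54966641, Myh7 from 54970684 to 54994626, coordinates as deposited, which equal GENCODE M21 on GRCm38 for 7 of the 9 genes and differ at an end for Myh6 and Tnni3). Myh7b (ENSMUSG00000074652) lies on chromosome 2 from 155611212 to 155634307. Each of these 3 myosin genes carries a microRNA in an intron, miR-208a in intron 29 of Myh6, miR-208b in intron 31 of Myh7 and miR-499 in intron 19 of Myh7b (RefSeq, GRCm38.p6). The mature sequences are shown because the hosts are the myosin isoforms compared here, with the seed, bases 2 to 8, in capitals.
mmu-miR-208a-3p: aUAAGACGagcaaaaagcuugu
mmu-miR-208b-3p: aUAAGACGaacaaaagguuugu
mmu-miR-499-5p: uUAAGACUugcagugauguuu
The miR-208a-3p and miR-208b-3p sequences share the whole seed and 19 of 22 bases, and miR-499-5p shares bases 2 to 7 of the seed with both. These libraries hold long poly(A) RNA and do not measure mature microRNAs.

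The promoters of the myosin and actin pairs are shown next, 250 bases before to 50 bases after the RefSeq start on GRCm38.p6, 5′ to 3′ on the gene's strand, with 2 muscle motifs in capitals. The first is MCAT, the letters CATTCC on either strand, known to be bound by TEAD factors, and the second is the CArG box, bound by serum response factor. Of 32851 mouse promoter windows of the same length 14.7% held MCAT and 1.63% held a CArG box, and the motifs did not overlap each other in these windows.
Myh6, chr14:54966558-54966857, minus strand: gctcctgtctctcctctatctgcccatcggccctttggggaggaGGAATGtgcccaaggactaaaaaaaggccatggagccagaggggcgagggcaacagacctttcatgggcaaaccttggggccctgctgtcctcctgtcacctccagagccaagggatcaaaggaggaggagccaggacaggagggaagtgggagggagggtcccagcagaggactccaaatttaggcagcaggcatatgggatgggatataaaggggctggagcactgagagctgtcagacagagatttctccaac
Myh7, chr14:54994577-54994876, minus strand: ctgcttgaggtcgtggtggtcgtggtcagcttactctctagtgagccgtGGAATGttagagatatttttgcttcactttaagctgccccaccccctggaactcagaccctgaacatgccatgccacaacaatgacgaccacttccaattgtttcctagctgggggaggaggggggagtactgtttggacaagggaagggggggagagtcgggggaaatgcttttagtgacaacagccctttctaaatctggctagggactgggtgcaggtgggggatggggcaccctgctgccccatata
Acta1, chr8:123894726-123895025, minus strand: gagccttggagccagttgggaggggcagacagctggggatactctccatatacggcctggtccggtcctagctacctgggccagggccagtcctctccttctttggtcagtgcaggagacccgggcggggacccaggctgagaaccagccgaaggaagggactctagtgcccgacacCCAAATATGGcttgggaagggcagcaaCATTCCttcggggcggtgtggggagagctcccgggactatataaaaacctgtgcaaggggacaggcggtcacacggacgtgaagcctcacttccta
Actc1, chr2:114052826-114053125, minus strand: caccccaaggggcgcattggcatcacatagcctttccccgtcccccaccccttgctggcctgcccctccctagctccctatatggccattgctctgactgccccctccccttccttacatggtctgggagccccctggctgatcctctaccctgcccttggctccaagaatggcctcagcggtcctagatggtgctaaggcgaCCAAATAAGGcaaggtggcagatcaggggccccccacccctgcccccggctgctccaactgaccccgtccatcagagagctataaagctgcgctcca
Myh6 and Myh7 each held 1 MCAT, with its first base at -206 and -201 from the start. A second RefSeq start of Myh7 has a window from 54994500 to 54994799, not shown, which held no MCAT. Acta1 held an MCAT at -46 and a CArG box at -73, and Actc1 held a CArG box at -47 and no MCAT. Of the other members' windows, not shown, that of Myl3 held 2 MCAT (-177 and -149) and a CArG box (-85). Both Myl2 windows have starts 8227 and 7762 bases from that of its main transcript, so the promoter of that transcript was not searched. The matches describe these windows and are not evidence of binding.

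On the FPKM scale, which allows levels to be compared between genes, Myh6 was the highest of the 9 in the sham libraries at 1673 ± 115 FPKM (SD, n = 4), followed by Myl2 at 1581 ± 170.2, Actc1 at 1511 ± 120.2, Myl3 at 1239 ± 115 and Tnni3 at 984 ± 151. Among these 5 the ranges of neighbours in the order overlapped. Acta1 (186 ± 92.3), Myh7 (91.0 ± 33.8), Myh7b (16.9 ± 1.62) and Tnni1 (0.0423 ± 0.0590) followed, and only the ranges of Acta1 and Myh7 overlapped among them. In the 4 MI libraries Actc1 was highest at 4211 ± 953 FPKM, and its lowest library lay above the highest Myh6 library. Myh6 (1828 ± 876), Myl2 (1042 ± 452) and Myl3 (952 ± 372) followed with overlapping ranges, Tnni3 was at 624 ± 209, and Myh7 moved from the seventh to the sixth place (447 ± 270.3), with ranges of all these neighbours overlapping. The mean of the 3 MI libraries other than fl/fl-MI 2 was 571 ± 134 for Myh7, the fifth place, above Tnni3.

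**Figure D1:**
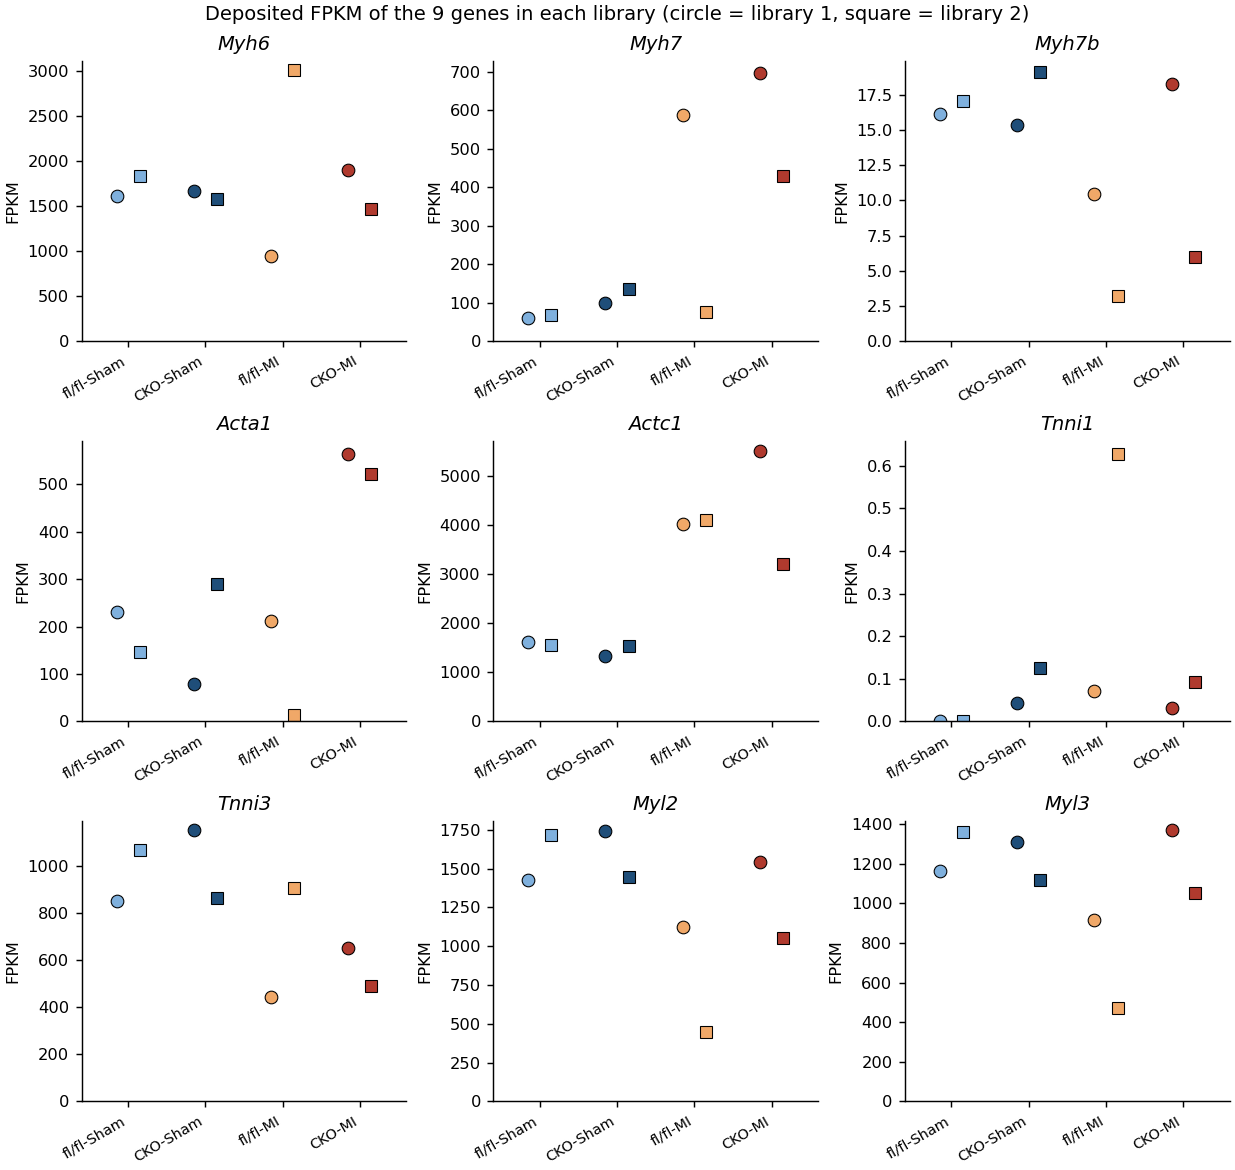
Deposited FPKM (y axis) of each of the 9 genes in the 8 libraries, grouped on the x axis by genotype and surgery, with a circle for library 1 and a square for library 2 of each group. Actc1 lies between 3208 and 5504 FPKM in the MI libraries and between 1339 and 1615 in the sham libraries, while fl/fl-MI 2 stands apart from fl/fl-MI 1 for Myh6, Myh7, Acta1 and Tnni1.

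Of the 8 genes that passed the filter on low values (all but Tnni1), 6 passed edgeR's quasi-likelihood test (adjusted p under 0.05) between the 4 MI and the 4 sham libraries of both genotypes. Of these 2 were higher and 4 were lower after MI. The background is large, since 40.4% of the 14028 genes tested were called in this comparison, 22% higher and 18.3% lower. The higher genes were Myh7 and Actc1, and the lower genes were Myh7b, Tnni3, Myl2 and Myl3. The median log2 fold change was -0.70 for the 8 genes and 0.03 for all genes tested. Without fl/fl-MI 2, 7 of 8 were called, Myh6 being added to the lower genes, beside a background of 50.7% (26.9% higher and 23.8% lower). The TMM-scaled CPM of Actc1 (higher), Myh7b, Tnni3, Myl2 and Myl3 (lower) did not overlap between the 4 MI and the 4 sham libraries, 5 of 8 genes beside 40.4% of all genes tested (20.9% higher and 19.5% lower). For the 3 MI libraries other than fl/fl-MI 2 there were 7 of 8, with Myh7 added to the higher and Myh6 to the lower genes, beside 52% (27% and 25%).

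**Figure D2:**
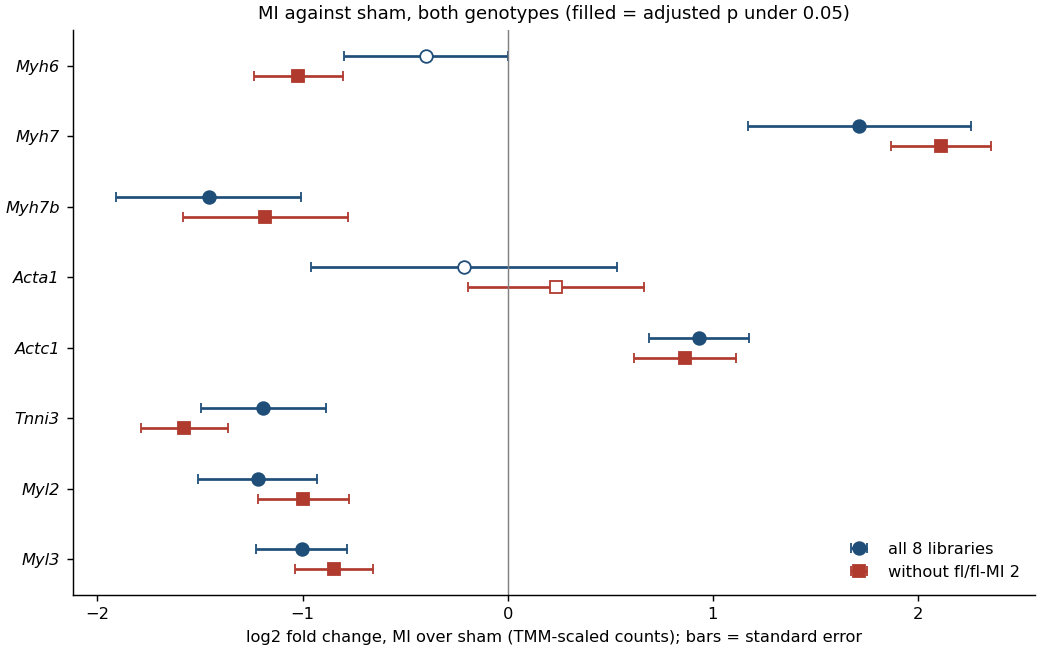
Log2 fold change of MI over sham for both genotypes together (x axis) of the 8 tested genes, with bars of 1 standard error, for all 8 libraries (circles) and without fl/fl-MI 2 (squares). Filled symbols mark an adjusted p under 0.05, and Myh6 is filled only without fl/fl-MI 2, where its log2 fold change was -1.02.

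The slow heavy chain Myh7 was higher after MI in 3 of 4 libraries. Its TMM-scaled CPM was 682 and 709.5 in fl/fl-Sham, 1062 and 1479.9 in CKO-Sham, 3935 and 604 in fl/fl-MI, and 5494 and 2913 in CKO-MI. Thus fl/fl-MI 1 and both CKO-MI libraries lay above every sham library, and fl/fl-MI 2 lay below them all. Over both genotypes the log2 fold change was 1.72 (SE 0.54, edgeR adjusted p = 0.0419), a 3.28-fold difference. With fl/fl-MI 2 left out it was 2.11 (SE 0.24, adjusted p = 0.000501), 4.32-fold. The call was lost when any of the 4 sham libraries (adjusted p from 0.1 to 0.14), CKO-MI 1 (0.123) or CKO-MI 2 (0.0612) was left out, and the log2 fold change fell to 0.74 without fl/fl-MI 1. Scaling to 12 cardiomyocyte markers outside the 9 genes also ended the call (1.54, adjusted p = 0.0786).

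The fast heavy chain Myh6 did not pass the test over all libraries. Its CPM was 14018 and 14915 in fl/fl-Sham, 13896 and 13486 in CKO-Sham, 4953 and 18522 in fl/fl-MI, and 11694 and 7739.95 in CKO-MI. The library fl/fl-MI 2 was the highest of the 8 and the other 3 MI libraries were below every sham library. The log2 fold change was -0.40 (SE 0.40, edgeR adjusted p = 0.460), and without fl/fl-MI 2 it was -1.02 (SE 0.22, adjusted p = 0.00683). Its sign depends on the scaling, being 0.11 with library totals and 0.01 in limma on FPKM, against -0.83 (adjusted p = 0.0180) when scaled to the cardiomyocyte markers.

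The ratio of Myh7 to Myh6, taken within each library from FPKM, is free of this scaling. It was 0.0380 and 0.0371 in fl/fl-Sham, 0.0597 and 0.0857 in CKO-Sham, 0.620 and 0.0254 in fl/fl-MI, and 0.367 and 0.294 in CKO-MI. As a share of the summed FPKM of both genes, Myh7 made up 3.58% to 7.89% in the sham libraries, 22.7% to 38.3% in 3 MI libraries, and 2.48% in fl/fl-MI 2. The log2 ratio was 1.97 higher in MI than in sham, with an exact two-sided permutation p of 0.143 (adjusted over the 5 ratios 0.238, n = 4 and 4). With 3 MI libraries, fl/fl-MI 2 left out, it was 2.97 higher, 7.83-fold, with an exact permutation p of 0.0571, which is the smallest that 3 against 4 libraries can give. Myh6 exceeded Myh7 in every library, by 1.61-fold in fl/fl-MI 1 and 39.3-fold in fl/fl-MI 2. In the sham libraries both CKO ratios lay above both fl/fl ratios, and 2 against 2 libraries cannot give an exact permutation p below 0.333.

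**Figure D3:**
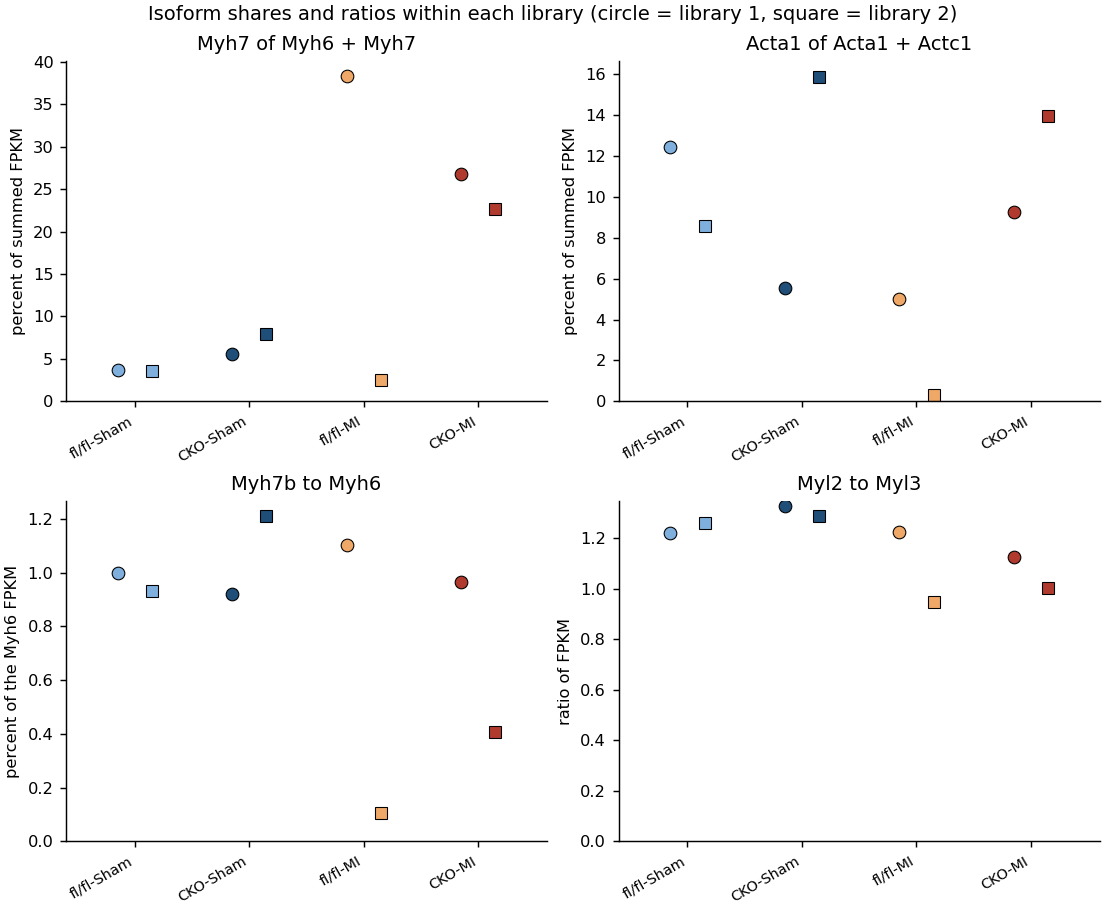
Myh7 as a percent of the summed FPKM of Myh6 and Myh7, Acta1 as a percent of Acta1 and Actc1, Myh7b as a percent of the Myh6 FPKM, and the Myl2 to Myl3 ratio (y axes), in each library by group (x axis), with a circle for library 1 and a square for library 2. The Myh7 share is 22.7% to 38.3% in 3 MI libraries and 2.48% in fl/fl-MI 2, and the Acta1 share falls to 0.323% in fl/fl-MI 2.

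Myh7b, a slow heavy chain gene whose intron carries miR-499, was lower after MI. Its CPM was 138 and 137 in fl/fl-Sham, 126 and 161 in CKO-Sham, 53.9 and 19.7 in fl/fl-MI, and 111 and 31.2 in CKO-MI. All 4 MI libraries lay below all sham libraries. This gave a log2 fold change of -1.46 (SE 0.45, edgeR adjusted p = 0.0384), and -1.18 (SE 0.40, adjusted p = 0.0426) without fl/fl-MI 2. The call was lost on leaving out any sham library (adjusted p from 0.0833 to 0.104) or CKO-MI 2 (0.0605), with library totals (-0.90, adjusted p = 0.107) and in limma on FPKM (-0.99, adjusted p = 0.0675). Relative to Myh6, Myh7b was at 0.921% to 1.21% of the Myh6 FPKM in the sham libraries, 1.10% and 0.964% in fl/fl-MI 1 and CKO-MI 1, and 0.108% and 0.408% in fl/fl-MI 2 and CKO-MI 2. The difference in the log2 ratio was -1.12 (exact permutation p = 0.257, adjusted over the ratios 0.321) and -0.41 without fl/fl-MI 2 (p = 0.514 by the same exact permutation test).

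Reads of Myh6 and Myh7 cannot always be told apart. Of the 5964 windows of 150 bases in the main Myh6 transcript, 330 (5.53%) occur unchanged in the main Myh7 transcript, and the longest shared run is 245 bases. A single read from such a window does not tell the genes apart unless its mate lies outside the shared run, and how the authors' counting placed it is not given in the sources used here. Myh7b shared no window of 50 bases with Myh6 or Myh7, and Acta1 shared none with Actc1.

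Cardiac actin Actc1 (ENSMUSG00000068614, chromosome 2 from 114047282 to 114053548) rose in every MI library. Its CPM was 3377 and 3052 in fl/fl-Sham, 2686 and 3145 in CKO-Sham, 5071 and 6083 in fl/fl-MI, and 8159 and 4082 in CKO-MI. Every MI library was above every sham library in both genotypes, fl/fl-MI 2 included. The difference was a log2 fold change of 0.93 (SE 0.25, edgeR adjusted p = 0.0222), 1.91-fold, and 0.86 (SE 0.25, adjusted p = 0.0234) without fl/fl-MI 2. Leaving out a sham library raised the adjusted p to between 0.0657 and 0.0957.

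Skeletal actin Acta1 (ENSMUSG00000031972, chromosome 8 from 123891769 to 123894751), the fetal partner, did not pass the test between MI and sham. Its CPM was 456 and 272 in fl/fl-Sham, 149 and 563 in CKO-Sham, 253 and 18.7 in fl/fl-MI, and 793 and 629 in CKO-MI. The CKO-Sham libraries lay far apart, at the lowest and the highest sham value, and fl/fl-MI 2 was far below every other library. The log2 fold change was -0.21 (SE 0.74, edgeR adjusted p = 0.838), and 0.24 (SE 0.43, adjusted p = 0.670) without fl/fl-MI 2. The sign turned positive with library totals (0.40) and in limma on FPKM (0.05). Without fl/fl-MI 1, where fl/fl-MI 2 alone stands for its group, it was -1.66 (adjusted p = 0.0223).

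Acta1 relative to Actc1 was not shown to differ after MI. The ratio was 0.142 and 0.0939 in fl/fl-Sham, 0.0586 and 0.189 in CKO-Sham, 0.0526 and 0.00324 in fl/fl-MI, and 0.102 and 0.162 in CKO-MI. The CKO-MI ratios lay within the range of the sham libraries, and both fl/fl-MI ratios lay below it. The log2 ratio differed by -1.43 between MI and sham (exact permutation p = 0.371, adjusted over the ratios 0.371), and by -0.21 without fl/fl-MI 2 (exact permutation p = 0.743). The summed FPKM of both actins was 1418 to 1845 in the sham and 3729 to 6068 in the MI libraries, a sum made mostly of Actc1, since Acta1 contributed at most 15.9% in any library. Markers of skeletal muscle, which expresses Acta1 strongly, summed to 1.40 to 6.35 FPKM over the 13 listed of 14, with the defining genes Myh4 at up to 0.167 and Myog at up to 0.116 FPKM, and of the 2 that passed the filter none was called.

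Slow skeletal troponin I, Tnni1 (ENSMUSG00000026418, chromosome 1 from 135779434 to 135810989), was near the limit of detection in every library but fl/fl-MI 2. Its deposited counts were 0 and 0 in fl/fl-Sham, 15 and 36 in CKO-Sham, 22 and 173 in fl/fl-MI, and 9 and 27 in CKO-MI. If a read pair gives 4 counts, an estimate, these are 43.2 read pairs in fl/fl-MI 2 and at most 9 in any other library. A count of 0 at this depth allows up to 0.204 TMM-scaled CPM in fl/fl-Sham 1 and 0.189 in fl/fl-Sham 2, against 2.08 measured in fl/fl-MI 2, the level of 3 read pairs at that estimate, a limit that covers counting error only. The gene was below the filter of 0.5 FPKM and was not tested in the fits above. With no filter it was called higher in MI than in sham (edgeR adjusted p = 0.0203) and, within fl/fl hearts, higher after MI (adjusted p = 0.00937), where both sham libraries were at 0. The high library was fl/fl-MI 2, and the values in the other 7 libraries are close to what a few read pairs give.

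Cardiac troponin I, Tnni3 (ENSMUSG00000035458, chromosome 7 from 4518305 to 4522794), fell after MI. Its CPM was 2267 and 2659 in fl/fl-Sham, 2955 and 2264 in CKO-Sham, 713 and 1716 in fl/fl-MI, and 1232 and 796 in CKO-MI. No MI library reached a sham library, and the highest MI library was fl/fl-MI 2. The log2 fold change was -1.19 (SE 0.30, edgeR adjusted p = 0.0203), and -1.58 (SE 0.21, adjusted p = 0.000944) without fl/fl-MI 2, where Tnni3 was 2.98-fold lower. The call was lost without fl/fl-Sham 1 (adjusted p = 0.0553), fl/fl-Sham 2 (0.0732), CKO-Sham 1 (0.0744) or CKO-MI 2 (0.0663).

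Tnni1 was at most 0.0690% of the Tnni3 FPKM, in fl/fl-MI 2, and at most 0.0191% in the other libraries. With 0.1 added to both FPKM values, since Tnni1 was listed at 0 in 2 libraries, the log2 ratio was 1.53 higher in MI (exact permutation p = 0.0571, adjusted over the ratios 0.143), and 1.19 higher without fl/fl-MI 2 (p = 0.114 by the same exact permutation test). With Tnni1 this low the added 0.1 outweighs its FPKM in all but 2 libraries. Among the other 7 libraries a difference between MI and sham was not detectable at this depth.

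The ventricular light chains Myl2, the regulatory chain (ENSMUSG00000013936, chromosome 5 from 122100951 to 122113472), and Myl3, the essential chain (ENSMUSG00000059741, chromosome 9 from 110741861 to 110769798), were both lower after MI. The CPM of Myl2 was 3589 and 4039 in fl/fl-Sham, 4207 and 3578 in CKO-Sham, 1706 and 797 in fl/fl-MI, and 2758 and 1617 in CKO-MI. The CPM of Myl3 was 3077 and 3359 in fl/fl-Sham, 3319 and 2908 in CKO-Sham, 1459.8 and 882 in fl/fl-MI, and 2564 and 1686 in CKO-MI. For both genes all MI libraries lay below all sham libraries, with fl/fl-MI 2 the lowest and CKO-MI 1 the highest of them. The log2 fold change of Myl2 was -1.22 (SE 0.29, edgeR adjusted p = 0.0156) and that of Myl3 was -1.005 (SE 0.22, adjusted p = 0.0121). Without fl/fl-MI 2 they were -0.996 (SE 0.22, adjusted p = 0.00826) and -0.85 (SE 0.19, adjusted p = 0.00851). Both calls were lost without fl/fl-Sham 2 (adjusted p = 0.0614 and 0.0545) or CKO-Sham 1 (0.0601 and 0.0523), with library totals (0.0824 and 0.117) and in limma on FPKM (0.0704 and 0.109). On the FPKM scale the groups overlapped, with Myl3 at 1369 FPKM in CKO-MI 1, above every sham library.

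Myl2 and Myl3 stayed close to each other in level. Their FPKM ratio was 1.22 and 1.26 in fl/fl-Sham, 1.33 and 1.29 in CKO-Sham, 1.23 and 0.948 in fl/fl-MI, and 1.13 and 1.01 in CKO-MI. All but fl/fl-MI 1 of the MI libraries were below the sham libraries. The log2 ratio differed by -0.25 (exact permutation p = 0.0571, adjusted over the ratios 0.143), and by -0.19 without fl/fl-MI 2 (exact permutation p = 0.114). Taken from summed transcript FPKM it differed by -0.31, with an exact permutation p of 0.0286, the smallest that 4 against 4 can give, which is 0.143 when adjusted over the ratios. The atrial partners were nearly absent outside fl/fl-MI 2, and Myl3 made up at least 99.3% of the summed FPKM of Myl3 and Myl4 in the other 7 libraries and 41.7% in fl/fl-MI 2.

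Within each genotype fewer genes passed. Among fl/fl mice, after MI as against sham surgery, Myl2 (log2 fold change -1.61, SE 0.41, edgeR adjusted p = 0.0396) and Myl3 (-1.46, SE 0.32, adjusted p = 0.0251) were called, 2 of 8 beside a background of 18.5%. Leaving out fl/fl-MI 2 gave 5 of 8 beside 29.5%, namely Myh7 (2.50, SE 0.37, adjusted p = 0.00350), Myh6 (-1.55, SE 0.35, adjusted p = 0.0161), Tnni3 (-1.79, SE 0.34, adjusted p = 0.00830), Myl2 (-1.16) and Myl3 (-1.14), with fl/fl-MI 1 as the only fl/fl-MI library and its spread taken from the other groups. With all libraries the Myh7 difference was 1.71 (SE 0.77, adjusted p = 0.158), and leaving out fl/fl-MI 1 turned it to -0.23. In that fit, with fl/fl-MI 2 alone in its group, 4 of 8 were called lower, namely Acta1 (-4.31, adjusted p = 0.00999), Myh7b (-2.83, adjusted p = 0.0230), Myl2 (-2.28) and Myl3 (-1.89), beside 29.8% of all genes. Leaving out any of the 4 sham libraries ended both calls, with adjusted p from 0.0582 to 0.189. The scaling decides which genes pass. With library totals Myl2 (edgeR adjusted p = 0.0815) and Myl3 (0.0571) lost their calls. Actc1 (1.35, adjusted p = 0.00666) and Myh7 (2.35, adjusted p = 0.0459) then gained them, beside 5814 of the 14028 genes. Of the 8, limma on FPKM called Actc1 alone (adjusted p = 0.00815), beside 5255 of all genes. Scaling to cardiomyocyte markers called Tnni3 alone of the 8 (-1.30, edgeR adjusted p = 0.0202), beside 486 of all genes.

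Between CKO-MI and CKO-Sham none of the 8 was called by edgeR, beside a background of 24.7%. At an unadjusted p under 0.05 there were 2, beside 39.9% of all genes, namely Actc1 (log2 fold change 1.07, SE 0.35, adjusted p = 0.0630) and Tnni3 (-1.36, SE 0.43, adjusted p = 0.0593). DESeq2 called 3, these and Myh7, beside 4726 of the 14028 genes tested. The Myh7 difference was 1.73 (SE 0.77, adjusted p = 0.142), and its CKO-MI libraries lay above both CKO-Sham libraries. The other differences were 0.996 for Acta1 (SE 1.06), -1.01 for Myh7b (SE 0.63), -0.83 for Myl2 (SE 0.41), -0.55 for Myl3 (SE 0.31) and -0.49 for Myh6 (SE 0.57). Dropping fl/fl-MI 2, a library outside the contrast whose spread enters the common fit, brought 4 of 8 past the threshold beside 41.3% of all genes. These were Myh7 (SE 0.32, adjusted p = 0.00522), Actc1 (adjusted p = 0.0338), Tnni3 (adjusted p = 0.00552) and Myl2 (-0.83, adjusted p = 0.0445). Dropping fl/fl-MI 1 in its place gave log2 differences of 1.72 for Myh7, 1.06 for Actc1, -1.37 for Tnni3 and -0.84 for Myl2.

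The question of the study, whether Piezo1 deletion changes the heart after MI, is addressed by the libraries labelled CKO-MI against those labelled fl/fl-MI. Here and between the sham groups only CKO mice carry the Myh6-Cre transgene, so its effect and that of the deletion cannot be told apart. None of the 8 genes was called by edgeR, beside a background of 0% of 14028 genes. DESeq2 called 0 of the 8, beside 207 of all genes. At an unadjusted p under 0.05 there was 1 in edgeR, Myl3, beside 8.31% of all genes. In DESeq2 there were 2, Myl2 and Myl3, beside 1432 of all genes. The log2 differences were 2.39 for Acta1 (SE 1.11, adjusted p = 0.630), 0.89 for Myh7 (SE 0.75), 0.95 for Myh7b (SE 0.63), 0.86 for Myl3 (SE 0.31, adjusted p = 0.556), 0.81 for Myl2 (SE 0.41), 0.13 for Actc1 (SE 0.34), -0.26 for Tnni3 (SE 0.43) and -0.27 for Myh6 (SE 0.57). The fl/fl-MI libraries differed from each other by more than the groups did for 7 of the 8 genes, all but Myl3. The share of all genes for which this holds is not given. On the log2 scale the CKO-MI libraries lay farther apart than the fl/fl-MI libraries for Actc1 (8159 and 4082 CPM in CKO-MI) and Myh7b (111 and 31.2 CPM). Once fl/fl-MI 2 was left out the Myh7 difference was 0.10 (SE 0.38, adjusted p = 0.956), the Acta1 difference 1.49 (SE 0.71, adjusted p = 0.471) and the Myh6 difference 0.97 (SE 0.34, adjusted p = 0.335), with 27 genes (0.192%) called in all and none of the 8.

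The choice of fl/fl-MI library decides this comparison. When fl/fl-MI 1 was left out, so that fl/fl-MI 2 was the only library of its group, 4 of the 8 were called higher in CKO-MI, beside 1674 of all genes (11.9%). They were Acta1 (log2 difference 5.26, edgeR adjusted p = 0.0144), Myh7 (2.82, adjusted p = 0.0115), Myl2 (1.48, adjusted p = 0.0439) and Myl3 (1.29, adjusted p = 0.0413). In the same fit the interaction of genotype and MI was called for Acta1 (edgeR adjusted p = 0.0306), 1 of 8 beside 5.35%.

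Between the sham groups no gene of the 8 was called, beside 0.00713% (1 of 14028 genes). In edgeR 0 had an unadjusted p under 0.05, beside 3.89%, and in DESeq2 0 had, beside 643 of all genes. Myh7 was higher in both CKO-Sham than in both fl/fl-Sham libraries, with a log2 difference of 0.87 (SE 0.75, edgeR adjusted p = 0.99973), and without fl/fl-MI 2 its SE was 0.31 and its adjusted p 0.495, beside 0.0214% of genes called. When the 4 sham libraries were fitted alone it was called (edgeR adjusted p = 0.0498), in a fit that called 165 of the 14028 genes. The other 7 differed by between -0.14 (Actc1) and 0.08 (Tnni3). The interaction, which asks whether the MI difference itself differs between genotypes, was called for none of the 8 and for 0% of 14028 genes. In edgeR 0 of the 8 had an unadjusted p under 0.05, beside 8.49%, and in DESeq2 1 had, Myl3, beside 1433 of all genes. Leaving out fl/fl-MI 2 gave 0 of 8 beside 0.0356%. Its largest value was 2.42 for Acta1 (SE 1.51, adjusted p = 0.698), followed by 0.91 for Myl3 (SE 0.44, adjusted p = 0.612).

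Several genes overlap the 9 on the opposite strand, and the sources used here do not say whether counting used the strand. Mhrt, a noncoding RNA antisense to Myh7 known to protect the mouse heart, shares 3666 bases with it. Its FPKM was 45.3 and 59.0 in fl/fl-Sham, 52.1 and 40.2 in CKO-Sham, 6.42 and 67.8 in fl/fl-MI, and 15.9 and 11.3 in CKO-MI. It was low in the 3 MI libraries in which Myh7 was high, and highest in fl/fl-MI 2. Its log2 fold change was -1.63 (SE 0.66, edgeR adjusted p = 0.0872), and -2.999 (SE 0.22, adjusted p = 0.000117) without fl/fl-MI 2. A second antisense gene within Myh7, Gm31251, shares 12209 bases, and its FPKM was 21.4 to 28.2 in the sham libraries, 4.01, 8.67 and 7.23 in fl/fl-MI 1, CKO-MI 1 and CKO-MI 2, and 38.3 in fl/fl-MI 2. The antisense RNA Gm49130, which overlaps the end of Myh6 by 932 bases, was at 11.2 to 12.5 FPKM in the sham libraries and 2.35, 12.5, 6.23 and 6.81 in fl/fl-MI 1, fl/fl-MI 2, CKO-MI 1 and CKO-MI 2.

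The microRNA precursors are listed as short genes. The precursor of miR-208b, Mir208b, inside Myh7, was listed at 50.8 to 95.0 FPKM in the sham libraries, at 6.70, 17.8 and 14.0 in fl/fl-MI 1, CKO-MI 1 and CKO-MI 2, and at 71.4 in fl/fl-MI 2. It was low in the 3 MI libraries in which its host Myh7 was high, as were Mhrt and Gm31251. The reads at this locus of 77 bases come from long RNA and are no measure of the mature microRNA, and their strand is not known. Mir208a, inside Myh6, was listed at 1.11 to 7.08 FPKM with its highest value in fl/fl-MI 2, and Mir499 was listed at 0 in 7 libraries.

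Of the 51 transcripts of the 9 genes, 18 reached 5% of their gene's summed transcript FPKM in at least 1 library. Acta1, Actc1, Tnni3 and Myl3 each had 1 such transcript, which held at least 93.7% of the gene's FPKM in every library. Myl2 had 2. Its transcript ENSMUST00000111751, with 8 exons and an end at 122113472, held 7.26% and 7.37% in fl/fl-Sham, 5.32% and 7.11% in CKO-Sham, 28.4% and 4.90% in fl/fl-MI, and 18.2% and 23.8% in CKO-MI. Thus 3 MI libraries were above and fl/fl-MI 2 was below all sham libraries, while the main transcript ENSMUST00000014080 held 68.5% to 93.6%. The absolute level of the second transcript was 269 to 365 FPKM in the sham libraries and 861, 781 and 684 FPKM in fl/fl-MI 1, CKO-MI 1 and CKO-MI 2, against 63.6 in fl/fl-MI 2. No test was made across transcripts.

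The heavy chains also showed a second long transcript. For Myh7, ENSMUST00000168485, which has 41 exons as the main transcript does, was at 0.0502 to 0.250 FPKM in the sham libraries, at 91.4 and 111 FPKM in fl/fl-MI 1 and CKO-MI 2, and at 3.07 and 6.19 FPKM in fl/fl-MI 2 and CKO-MI 1. It held 11.1% and 18.4% of the gene's FPKM in the former libraries. For Myh6, ENSMUST00000226297 also has 39 exons, with slightly shorter ends, and held 0% to 22.5% in the sham and 12.1% to 48.0% in the MI libraries. These long transcripts overlap their main transcripts nearly everywhere, so their shares rest on the reads in few bases and on an assignment that the sources used here do not describe. A short Myh6 transcript, ENSMUST00000228731 (542 bases, 4 exons), held 3.06% to 19.0% in the sham and 0.285% to 0.382% in the MI libraries. Its level was 57.1 to 432 FPKM in the sham and 3.46 to 12.8 FPKM in the MI libraries, fl/fl-MI 2 included. It was not tested, and its assignment is not described either.

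**Figure D4:**
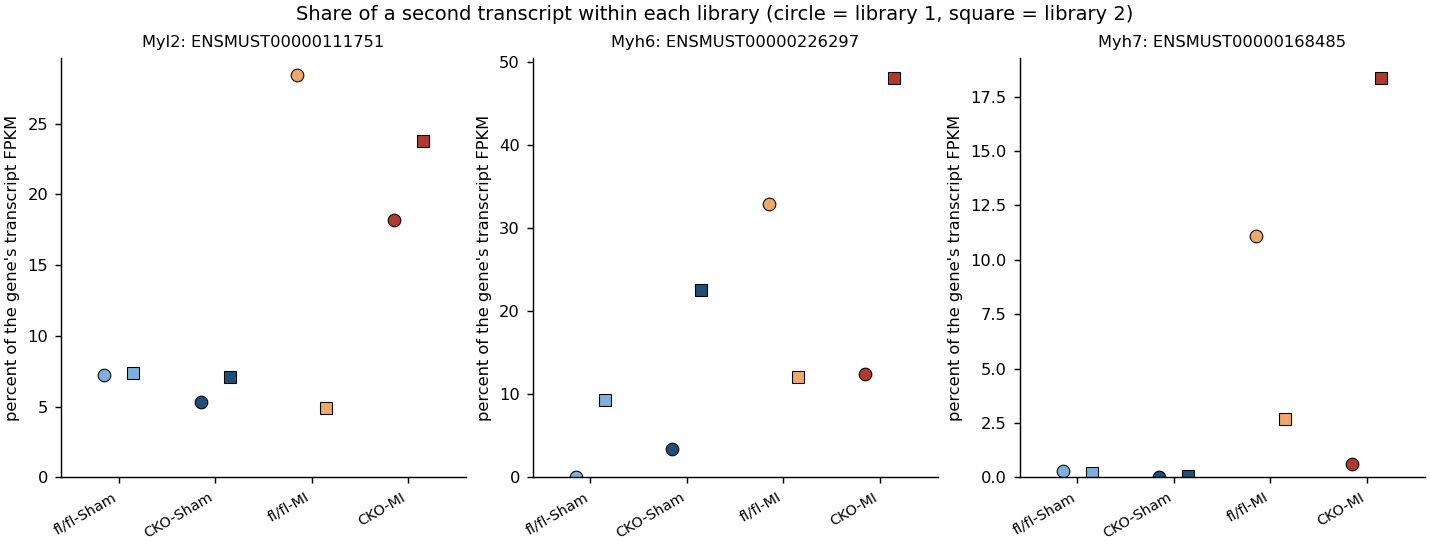
Percent of the gene's summed transcript FPKM (y axis) held by a second transcript of Myl2, Myh6 and Myh7 in each library by group (x axis), with a circle for library 1 and a square for library 2. The Myl2 transcript lies at 18.2% to 28.4% in 3 MI libraries, at 4.90% in fl/fl-MI 2 and at 5.32% to 7.37% in the sham libraries.

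Lists of other thick and thin filament genes gave a mixed picture. They are not confined to the sarcomere. The thick filament list also holds the nonmuscle myosins Myh9, Myh10 and Myh14. The thin filament list also holds the nonmuscle actins Actb and Actg1 and the smooth muscle genes Acta2, Actg2 and Lmod1. Of 15 tested of 17 further thick filament genes, 4 (26.7%) were higher after MI and none lower, beside the 40.4% of all genes called, namely the nonmuscle myosin Myh10 (log2 fold change 1.10), the M-band protein Myom2 (0.99), the myosin light chain kinase Mylk3 (0.99) and Myom1 (0.45). The median was 0.92 with all libraries and 0.29 without fl/fl-MI 2, beside 0.03 and 0.02 for all genes, and 5 were then higher and 1 lower. Of 18 tested of 21 further thin filament genes, 3 were higher and 4 lower (38.9% called), led by the actin filament nucleator Lmod2 (2.004, adjusted p = 0.00174), Nebl (1.34) and Tmod1 (0.97) on the one side and Tnnt1 (-1.12), Tmod4 (-0.96) and cardiac troponin C, Tnnc1 (-0.71), on the other. Its median was -0.00 (3 higher and 5 lower without fl/fl-MI 2). Of the 12 cardiomyocyte markers outside the 9 genes, 6 were higher and 2 lower, Tcap (-1.51) and Tnnc1 (7 and 3 without fl/fl-MI 2), and they summed to 3487 to 3857 FPKM in the sham and 4201 to 5828 in the MI libraries, on a scale relative to library totals, with which the median gene was higher by 0.59 (log2) after MI.

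Among 24 tested of 25 genes known to act on the myosin heavy chain and actin genes, 7 were higher and 1 was lower after MI in edgeR, 33.3% beside 40.4% of all genes. The higher genes were the thyroid hormone activating deiodinase Dio2 (log2 fold change 3.01, SE 0.84, adjusted p = 0.0266), the cofactor Myocd (1.78), serum response factor Srf (1.18, SE 0.17, adjusted p = 0.00259), Gata4 (0.87), Sox6 (0.82), Gata6 (0.73) and Med13 (0.36), a known target of miR-208a. The lower gene was the histone deacetylase Hdac5 (-0.44). When fl/fl-MI 2 was left out there were 10 higher and 4 lower (58.3% beside 50.7%), with a median of 0.21 beside 0.02 for all genes. The TEAD factor Tead1 had a log2 fold change of 2.02 (SE 0.68, adjusted p = 0.0502). Its FPKM was 3.85 and 3.44 in fl/fl-Sham, 3.22 and 0.213 in CKO-Sham, and 12.5 to 17.4 in the MI libraries. The fold change and its SE thus include a CKO-Sham 2 value far below the other sham libraries.

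Wall stress genes were higher after MI. Of 5 tested of 6 names, all 5 passed, namely Nppa (log2 fold change 4.50), Ccn2 (3.56), Ankrd1 (3.43), Xirp2 (2.92) and Nppb (2.79). Xirp2 was at 247, 240.2 and 133 FPKM in fl/fl-MI 1, CKO-MI 1 and CKO-MI 2 and at 18.2 FPKM in fl/fl-MI 2, against 8.42 to 16.2 in the sham libraries, whereas Nppa, Nppb and Ankrd1 were above their sham range in fl/fl-MI 2 as well. Markers of other cell types are given next. For these and the wall stress genes the background is 40.4% of all genes called. Fibroblast markers were higher in 7 of 8 (summed FPKM 173 to 191 in sham and 370 to 1147 in MI), macrophage markers in 4 of 6 (153 to 176 and 233 to 729), and endothelial markers were lower in 6 of 6 (229 to 272 and 118 to 147). Of 8 smooth muscle markers 1 was higher, Myocd, and 2 were lower (68.9 to 114 and 106 to 179 FPKM). Of 7 atrial markers 2 were higher, Nppa and Dkk3. The shares called, 37.5% of the smooth muscle and 28.6% of the atrial markers, lay below that of all genes. Myocd is also counted among the regulators and Nppa among the wall stress genes. Leaving out fl/fl-MI 2, beside 50.7% of all genes called, gave 8 of 8 fibroblast and 5 of 6 macrophage markers higher and 6 of 6 endothelial markers lower. It also gave 1 smooth muscle marker higher and 2 lower (37.5%), and 2 atrial markers higher and 2 lower (57.1%). These sums are FPKM, with the same upward shift after MI. In bulk tissue, fewer cardiomyocytes and less of a transcript in each cardiomyocyte cannot be told apart, and the part of these markers in the results on the 9 genes was not tested.

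**Figure D5:**
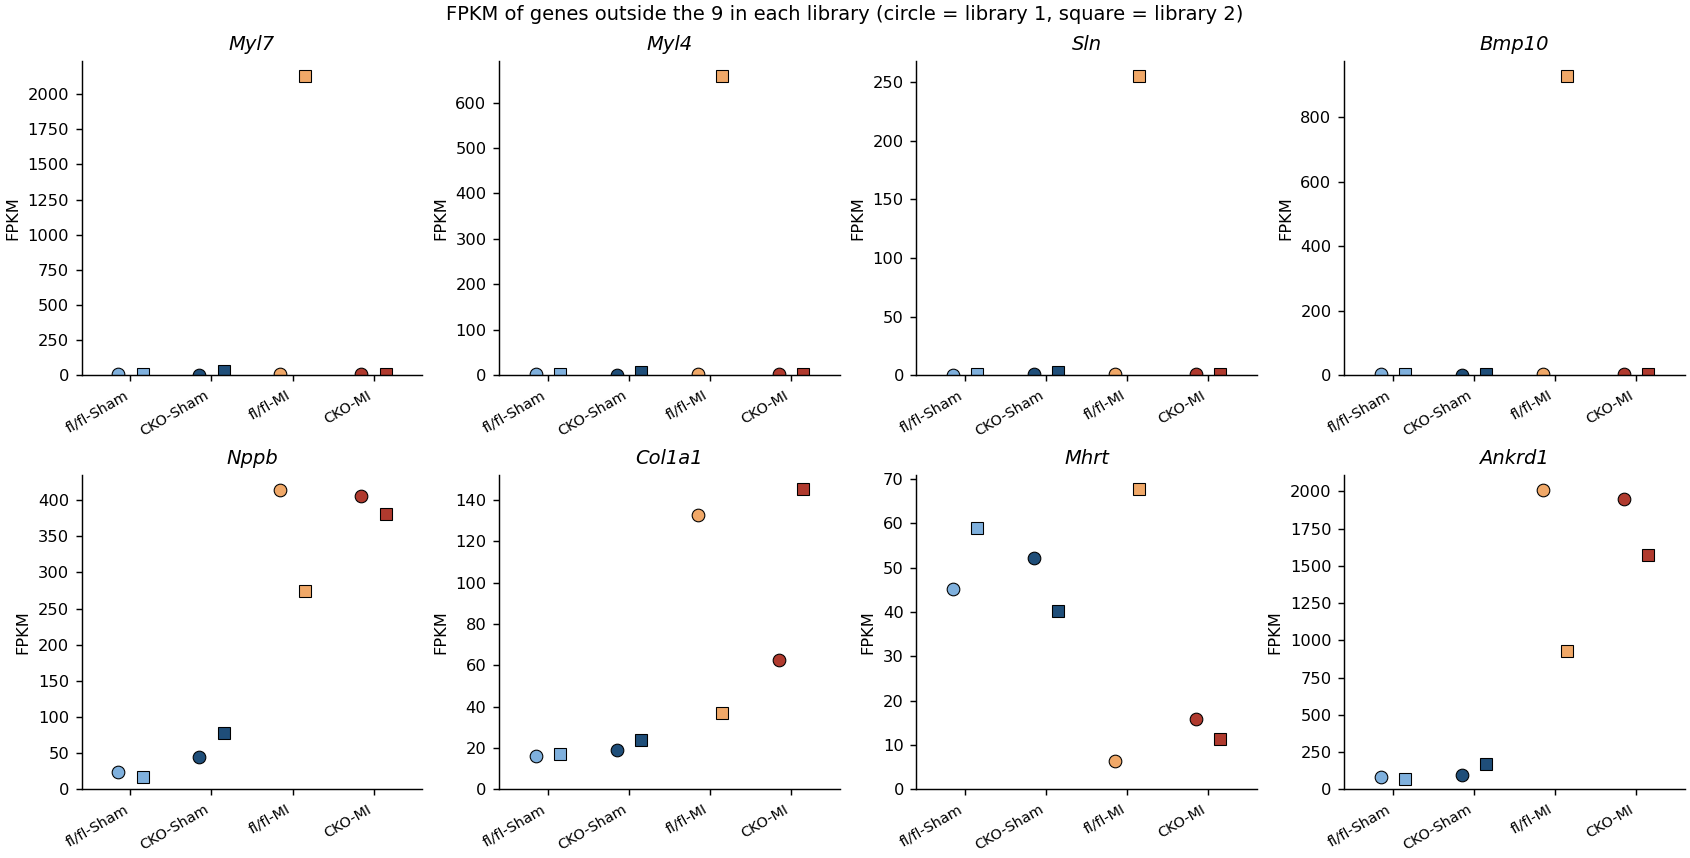
FPKM (y axis) of 4 atrial genes (Myl7, Myl4, Sln, Bmp10), the wall stress genes Nppb and Ankrd1, the fibroblast gene Col1a1 and the antisense RNA Mhrt in each library by group (x axis), with a circle for library 1 and a square for library 2. The atrial genes are high only in fl/fl-MI 2, at 2129 FPKM for Myl7, and Mhrt is at 6.42 to 15.9 FPKM in the other 3 MI libraries and 40.2 to 59.0 in the sham libraries.

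As a description, the genes whose log2 CPM over the 8 libraries was most like that of a member were listed. For Myh7 they were St6galnac4 (Pearson r = 0.99), Gm49808, Ppp2cb, Nol8 and Bcl2 (0.96). For Myh6 they were Klhl30 (0.98), Trappc9, Slc47a1, Car14 and Fars2 (0.97), and for Acta1 Zfp867 (0.97), Bahd1, Cnot4, Zfp213 and Ephb3 (0.95). Among the members, Myh6 correlated with Tnni3 (0.84) and inversely with Myh7 (-0.75), and Acta1 correlated with Myl3 (0.62) and hardly with Actc1 (-0.11). The 8 libraries hold both surgery groups and fl/fl-MI 2, so each value reflects differences between groups and that library, and no p is given.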

How the data were processed

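RNA sequencing of 8 mouse myocardium libraries, 2 per group, was analysed, with groups taken from the deposited labels. The authors made strand-marked libraries from poly(A) RNA. Reads were trimmed with cutadapt 1.9 per the submitters' processing notes, and the aligner, counter and annotation are not given in the sources used here. For each gene and transcript the authors deposited a whole-number count, not normalized, and an FPKM value. Deposited counts per library ranged from 73821747 to 88117573. The 9 genes and all gene lists were chosen with earlier results of these data known.

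A gene was tested when its FPKM averaged 0.5 or more over the 8 libraries (14028 of 33249 genes), by fits with edgeR 4.0.16 (R 4.3.3), quasi-likelihood, TMM scaling, a mean per group and all libraries in the fit, with p-values Benjamini-Hochberg adjusted over all genes tested and called under 0.05. The fit was tested on simulated data for MI against sham over both genotypes (14028 genes) and recovered 50 of 100 genes changed by a log2 of 1 and 96 of 100 changed by 2, with 19 unchanged genes called. The simulated data held no library set apart from its group as fl/fl-MI 2 is. They did not cover the comparisons within a genotype, between genotypes or with a library left out. Ratios were taken from FPKM within a library and compared by exact two-sided permutation of 4 MI and 4 sham libraries, adjusted over the 5 ratios. The Tnni1 to Tnni3 ratio had 0.1 added to both FPKM values, because Tnni1 was listed at 0 in 2 libraries, which departs from the planned ratio without an addition.

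The rule was to name all 9 genes in every comparison. Of each list it took the counts, up to 4 called genes with the largest change and genes that define it. For Myh7, Myh6 and Acta1 it took the 5 most similar genes. The rule was not kept throughout. The sham and interaction results name only some of the genes. The thin filament and wall stress lists name more than 4 called genes, and other lists name fewer or none. Mir208b, Mir208a, Mir499, Gm31251 and Gm49130 were named after their values were seen, as were Tead1 and the further genes called among the regulators, and Piezo1 is given as the targeted gene. Alternatives were other scalings and filters, DESeq2 1.42.0, limma 3.58.1 on log2(FPKM + 1) and log2(FPKM + 0.1), counts divided by 4, a replicate block, and leaving out each library in turn. Promoter and microRNA sequences are from RefSeq (GRCm38.p6) and matched by gene symbol. Permutations were run with SciPy 1.17.1 under Python 3.11.15 (pandas 2.3.3), and plots with matplotlib 3.10.9.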

Additional observations from a re-analysis of the deposited data

Results flagged for a closer look

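On the TMM-scaled CPM scale the MI libraries of Acta1 lay on opposite sides of the sham libraries in the genotypes, with 2 libraries in each group. The share of all genes with such a pattern is not given, so it is not shown to be particular to Acta1. Both fl/fl-MI libraries (253 and 18.7 CPM) lay below both fl/fl-Sham libraries (456 and 272 CPM), and both CKO-MI libraries (793 and 629 CPM) lay above both CKO-Sham libraries (149 and 563 CPM). The interaction of genotype and MI was a log2 value of 2.42 (SE 1.51, edgeR adjusted p = 0.698), so the difference did not pass the test. On the FPKM scale fl/fl-MI 1 (212) lay between the fl/fl-Sham libraries (229.6 and 147 FPKM). Without fl/fl-MI 2 the interaction was 1.52 (SE 0.88, adjusted p = 0.470). No value of the 8 tested genes or of 4 ratios was set apart from the other 3 libraries of its sham or MI set by Dixon's test, in 24 sets.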

How the results depend on the processing

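Beside 6 of 8 genes called in MI against sham, 3 were called with library totals and 3 with limma on either pseudocount (1 or 0.1), Myh7b, Myl2 and Myl3 being lost in each, and leaving out 1 library gave 0 to 7. In fl/fl-MI against fl/fl-Sham (2 called) there were 1 with scaling to cardiomyocyte markers (Tnni3), 1 with each limma fit (Actc1), 2 others with library totals (Myh7 and Actc1), 0 with only the groups compared in the fit, 4 without a filter (Myh7b and Tnni1 added), 5 with DESeq2, 4 at an unadjusted p under 0.05 with at least a 2-fold change, and 0 to 5 on leaving out 1 library. In CKO-MI against CKO-Sham (0 called) there were 1 with library totals, 1 with cardiomyocyte scaling, 1 with each limma fit, 2 without a filter, 2 with the filter at 5 FPKM, 2 with only the groups compared, 2 at an unadjusted p with 2-fold, 3 with DESeq2, and 0 to 4 on leaving out 1 library. CKO-Sham against fl/fl-Sham gave 1 with only the groups compared and 0 to 0 on leaving out 1 library, CKO-MI against fl/fl-MI gave 0 to 4, and the interaction gave 0 to 1. The 5 ratios kept direction in all 18 values under other settings and all 40 on leaving out 1 library. None passed the threshold in any of these. With 1 library left out the smallest possible exact permutation p is 0.0571, so no ratio could pass there, nor with the replicate block. Over all genes, 5662 calls for MI against sham became 8101 with library totals (7296 higher and 805 lower, median log2 shift 0.59), 2575 with cardiomyocyte scaling (582 higher and 1993 lower, median -0.25), 2906 with the filter at 5 FPKM, 7864 and 7954 with limma, and 3235 to 7108 on leaving out 1 library. Calls over all genes in fl/fl-MI against fl/fl-Sham were 2596 in the main fit and 486 with cardiomyocyte scaling. They were 5255 and 5437 with limma, 5814 with library totals, 199 with only the groups compared and 4038 with DESeq2. In CKO-MI against CKO-Sham they were 3467, 1186, 5164 and 5390, 5509, 4835 and 4726 in that order. No filter gave 2660 in the fl/fl and 3167 in the CKO comparison, of 33249 genes. The cause of these changes was not tested, beyond the settings' own construction.

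Single genes changed sign as follows. With library totals, Myh6 was 0.11 in MI against sham, 0.19 in the fl/fl and 0.0359 in the CKO comparison with sham, the Myh7 interaction was -0.10, and Acta1 in MI against sham was 0.40. With limma on the 2 pseudocounts, Myh6 was 0.00508 and 0.00502 in MI against sham, 0.0396 and 0.0396 in CKO-MI against CKO-Sham, and 0.0691 and 0.0693 in the interaction, and Acta1 was 0.0482 and 0.0309 in MI against sham. With cardiomyocyte scaling, Myh6 (0.12), Acta1 (0.17), Actc1 (0.0605) and Myl3 (0.16) turned in the sham groups, Actc1 turned between the MI groups (-0.0683), and the interactions of Myh7 (-0.69) and Actc1 (-0.13) turned. With the filter at 5 FPKM the Myh7 interaction was -0.0504. None of these results was past the threshold in the report.

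Leaving out 1 library turned the sign of 17 gene and comparison results. In fl/fl-MI against fl/fl-Sham, Myh6 ranged from -1.55 to 0.33 and Myh7 from -0.23 to 2.50. In CKO-MI against fl/fl-MI, Myh6 ranged from -0.91 to 0.97, Myh7b from -0.22 to 1.88, Actc1 from -0.44 to 0.58 and Tnni3 from -0.74 to 0.51. In the interaction, Myh6 ranged from -0.83 to 1.05, Myh7 from -0.77 to 1.95, Myh7b from -0.29 to 1.81, Actc1 from -0.30 to 0.73 and Tnni3 from -0.82 to 0.43. In the sham groups, Myh7b ranged from -0.12 to 0.23, Acta1 from -1.28 to 0.63, Tnni3 from -0.12 to 0.26, Myl2 from -0.0920 to 0.14 and Myl3 from -0.15 to 0.0449, and Acta1 in MI against sham ranged from -1.66 to 0.42. Where a group is left with 1 library, that library is assumed to vary like the others.

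The groups share library numbers, but the numbers did not pair the samples, since the deviations of same-numbered libraries correlated by between -0.143 and 0.0635. With a replicate block 5085 genes were called for MI against sham, Myh7 lost its call (edgeR adjusted p = 0.0843), and in the sham groups Acta1 was 0.23 and Myl2 was -0.00397. Each group had 2 libraries, with an estimated 18455437 to 22029393 read pairs in each library. The number of libraries and the spread within the MI groups limit the comparisons of genotype, and depth limits only Tnni1.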
